A study of Mus musculus with 48 samples.

Results

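Axon guidance ligands and receptors were taken here as all genes whose symbol is Sema (semaphorins), Plxn (plexins), Efna or Efnb (ephrins), Epha or Ephb (Eph receptors), Slit, Robo, Ntn (netrins, netrin-G genes included) or Unc5 with a number or family letter, apart from Robo4, a receptor of endothelial cells. The symbols alone chose them. They matched 67 of the 27179 genes in the count table. Of these, 60 reached a mean of at least 1 CPM (the library-size-scaled count, with factors from TMM, the trimmed mean of M values) in at least 1 of the 8 groups of stage and muscle and are described below. They were 19 of 20 semaphorins, 9 of 9 plexins, 7 of 8 ephrins, 11 of 14 Eph receptors, 5 of 6 Slit and Robo genes and 9 of 10 netrin and Unc5 genes. Just inside the threshold, the highest group mean was 1.56 CPM for Ntng1, 1.82 CPM for Unc5c and 2.80 CPM for Efna4. Just outside, it was 0.995 CPM for Unc5d, 0.249 CPM for Efna3 and 0.166 CPM for Sema4f. Epha6, Epha8, Epha10 and Robo3 were also below it. A gene near 0 in most groups passed through the group in which it was high, so counts over the 60 genes are descriptions.

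Messenger RNA had been sequenced from 4 dissected hindlimb muscles of male mice of the inbred strain FVB/NJ, in adults and at the embryonic stage E18.5. Each stage had 6 animals, and each animal gave 1 library from each muscle. The labels call soleus and vastus intermedius slow-biased, with a larger share of slow fibres, and the gastrocnemius and the vastus lateralis fast-biased. The vastus muscles lie in the thigh, and soleus and gastrocnemius lie in the shank. The 8 groups are adult soleus, adult vastus intermedius, adult gastrocnemius, adult vastus lateralis and the same muscles at E18.5. The labels name no allele, transgene or treatment in any group. For the adults' age, the growth protocol gives 3 to 4 months at delivery and the design text day 56 after birth. The animals of each stage are lettered A to F by the date tags of the count table, and the letters do not link the stages. Adult vastus intermedius of collection B is left out for its embryonic profile: among 37 members over 2-fold apart between the stages in that muscle, it lay nearer the E18.5 mean for 36. This left 47 libraries, 5 of adult vastus intermedius and 6 of every other group. Stage and collection date cannot be told apart, since no date is shared between the stages.

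The 47 libraries held 14935541 to 32383982 counts (median 22899843), and a count of 0 allowed up to 0.0647 to 0.377 CPM on the TMM scale, depending on the library and for counting error only. The summed level of 7 skeletal muscle markers had a lowest, median and highest library of 87743, 158319 and 273681 CPM in adults and 11159, 26054 and 43597 CPM at E18.5, with no marker at 0. Markers of neuron cell bodies summed to at most 1.55 CPM in adults and 6.81 CPM at E18.5, and Chat, which marks motor neurons, had no count in any library.

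Axon guidance cues are secreted or membrane-bound proteins that steer growing axons by attraction or repulsion through receptors on the growth cone. Semaphorins signal through plexins, with neuropilins as co-receptors for most class 3 members; ephrins bind Eph receptor tyrosine kinases on touching cells, Slits bind Robo receptors, and netrins act through Dcc, neogenin and Unc5 receptors. In the mouse limb, Sema3a, Sema3f and ephrin signalling through Epha4 are known for guiding motor axons into the limb, and many of the same proteins also act in blood vessels, connective tissue and muscle precursors. Efna3 and Epha8, known in mice for a repulsion that keeps fast motor axons off slow fibres, were both below the threshold in these whole muscles.

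Most of the genes were lower in adult muscle than at E18.5, and a small set led by Ntng2 and Sema4d was higher. By edgeR's quasi-likelihood F test with Benjamini-Hochberg adjustment over all genes and a threshold of 0.05, 12 members were higher and 43 lower of 60 tested in adult soleus, where 76.0% of all genes tested were called. In gastrocnemius 7 were higher and 45 lower of 60 (82.2% of all genes called), in vastus intermedius 10 and 42 of 60 (76.1%), and in vastus lateralis 7 and 44 of 59 (79.0%), Unc5c falling under the count filter. With the left-out library under its label, 10 were higher and 34 lower in vastus intermedius. In soleus 39.7% of all genes tested were called lower and 36.3% higher, in gastrocnemius 44.0% and 38.2%, in vastus intermedius 39.2% and 36.9%, and in vastus lateralis 42.6% and 36.4%. The median log2 fold change of the members was -1.09 in soleus, -1.66 in gastrocnemius, -1.09 in vastus intermedius and -1.68 in vastus lateralis, beside -0.06, -0.12, -0.04 and -0.15 over all genes tested in the same order of muscles.

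Of the 60, 35 were lower in all 4 muscles and 5, Ntng2, Sema4a, Sema4d, Sema6c and Sema7a, were higher in all 4. Among all 14114 genes tested in the 4 muscles, 31.1% were lower and 26.2% were higher in all of them. Every adult library lay below every E18.5 library for 28 members and above for 2, beside 18.9% below and 15.4% above of the 14549 genes of the whole table that reached 1 CPM in a group. Only whole muscles were sequenced, so fewer cells of a type and less RNA per cell cannot be told apart. Several marker sums moved with stage: 4 proliferation markers summed to 1.38 to 9.48 CPM in adults and 479 to 811 CPM at E18.5, and 7 fibroblast and progenitor markers to 887 to 2590 CPM in adults and 8465 to 19414 CPM at E18.5. The 6 satellite cell markers summed to 37.7 to 79.1 CPM in adults and 201 to 390 CPM at E18.5, and the 9 Schwann cell markers to 10.7 to 471 CPM in adults and 100.3 to 256 CPM at E18.5. The part of these cell types in the stage differences was not tested.

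**Figure D1:**
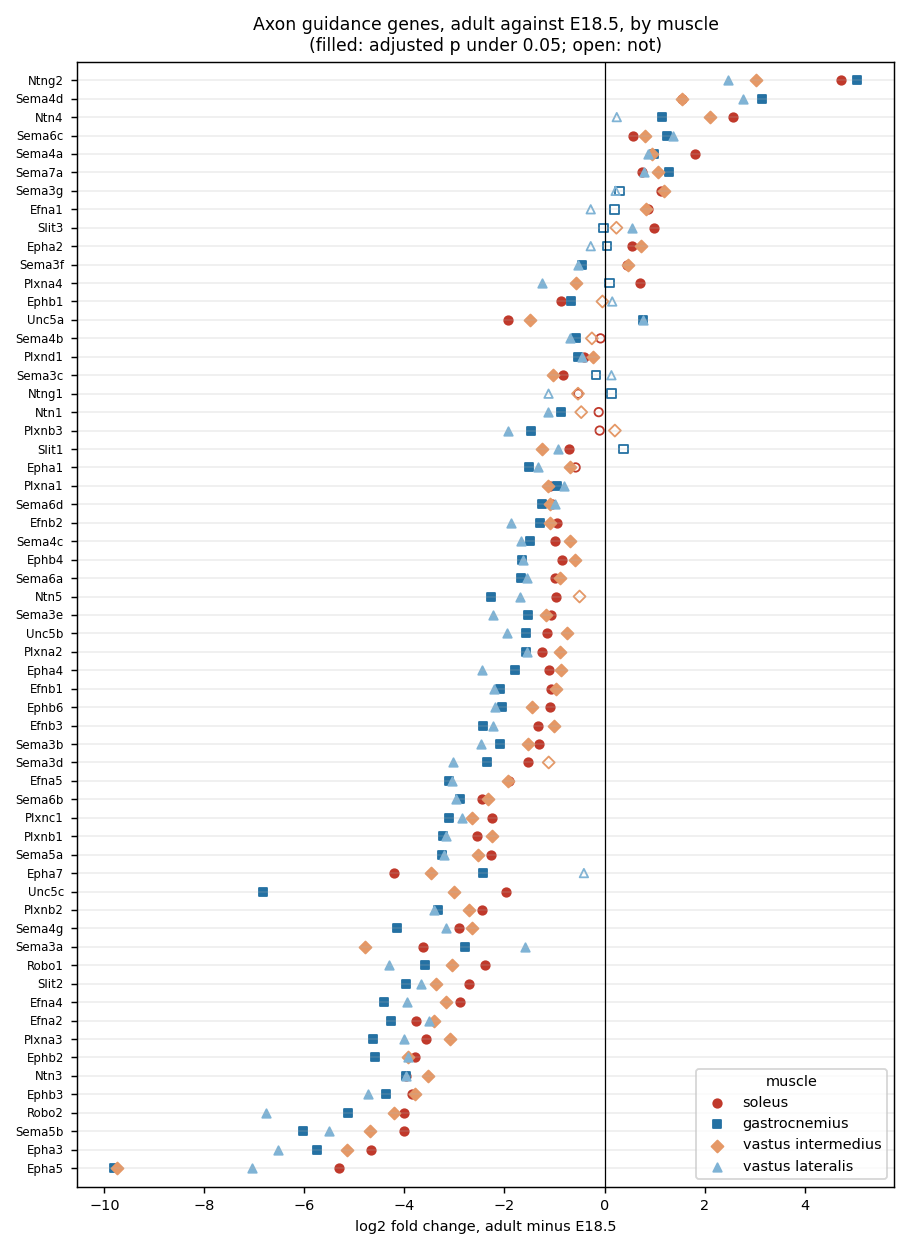
Log2 fold change of each of the 60 genes between adult and E18.5 muscle (x axis, adult minus E18.5), with 1 symbol per muscle and the genes ordered by their median. Filled symbols passed the adjusted threshold of 0.05 and open symbols did not; most symbols lie left of 0, and Ntng2 and Sema4d lie farthest to the right. The values of Epha5 in gastrocnemius, vastus intermedius and vastus lateralis and of Unc5c in gastrocnemius rest on 0 to 2 adult counts in all.

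Among the semaphorin ligands, 10 of 19 were lower and 4 higher in all 4 adult muscles. Sema5a and Sema5b are transmembrane semaphorins with thrombospondin repeats. Sema5a had a lowest, median and highest library of 4.65, 11.5 and 30.8 CPM in adults and 47.9, 84.9 and 119.7 CPM at E18.5, and Sema5b had 0.0524, 0.321 and 1.38 CPM in adults and 4.28, 14.04 and 27.6 CPM at E18.5. Neither gene's stages overlapped. Their log2 fold changes ran from -3.25 (SE 0.17, gastrocnemius) to -2.28 (SE 0.25, soleus) for Sema5a and from -6.02 (SE 0.31, gastrocnemius) to -4.00 (SE 0.48, soleus) for Sema5b, with adjusted p of 5.76e-07 and 1.62e-06 in soleus. Sema4g, a transmembrane class 4 member, had 0, 0.798 and 2.14 CPM in adults and 3.91, 7.51 and 11.2 CPM at E18.5. Sema6b, a class 6 member that binds A-type plexins, had 2.80, 5.44 and 9.05 CPM in adults and 20.5, 36.4 and 51.3 CPM at E18.5. Both sets of values were apart between the stages, and the log2 fold changes ran from -4.14 to -2.64 for Sema4g and from -2.97 to -2.34 for Sema6b.

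The 4 semaphorins higher in all 4 adult muscles were Sema4a, Sema4d, Sema6c and Sema7a. Sema4d, a ligand of plexin-B1 that is also known from immune cells and bone, had a lowest, median and highest library of 47.2, 105 and 157 CPM in adults and 8.34, 16.2 and 27.2 CPM at E18.5, with no overlap. Its log2 fold change was 3.15 in gastrocnemius (SE 0.14, adjusted p = 6.76e-12), 2.77 in vastus lateralis (SE 0.19, adjusted p = 3.00e-09), 1.56 in soleus (SE 0.13, adjusted p = 2.06e-08) and 1.55 in vastus intermedius (SE 0.17, adjusted p = 1.55e-06). Sema6c, a transmembrane class 6 member, rose by 0.58 in soleus (SE 0.23, adjusted p = 0.0323) and by 1.38 in vastus lateralis (SE 0.14, adjusted p = 1.91e-07). Sema7a, which is held to the membrane by a lipid anchor and signals through integrins and plexin-C1, rose by 0.76 to 1.30. Sema4a rose by 0.87 to 1.82, and its call in vastus lateralis (adjusted p = 0.0314) was lost with upper-quartile scaling (adjusted p = 0.0561) and without adult collections A or B or E18.5 collections C, D, E or F, when its log2 fold change was 0.67 to 0.85 and its adjusted p 0.0535 to 0.0903. In vastus intermedius it was lost without adult collection C (0.72, adjusted p = 0.0720). Sema3g, a class 3 member known from arteries, rose in soleus (1.12, SE 0.16, adjusted p = 1.39e-05) and vastus intermedius (1.19, SE 0.18, adjusted p = 3.76e-05) and did not pass in the fast-biased muscles.

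Ephrin ligands were lower in adults in 6 of 7 cases in every muscle. Efna2 had a lowest, median and highest library of 0, 0.532 and 1.08 CPM in adults and 5.33, 7.52 and 9.00 CPM at E18.5. Efna4 had 0, 0.146 and 0.662 CPM in adults and 1.20, 2.15 and 3.58 CPM at E18.5. For both lipid-anchored ligands the highest adult library was below the lowest embryonic one. The log2 fold changes ran from -4.27 to -3.41 for Efna2 and from -4.40 to -2.88 for Efna4, with SEs up to 0.65 for the low counts of Efna4. The transmembrane ephrins Efnb1, Efnb2 and Efnb3 fell by 0.95 to 2.44. Efna1, a ligand known from vessels, went the other way in slow-biased muscles, by 0.87 in soleus (SE 0.20, adjusted p = 0.00120) and 0.83 in vastus intermedius (SE 0.19, adjusted p = 0.00140), and passed in neither fast-biased muscle.

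Slit2, a secreted ligand of Robo receptors, had a lowest, median and highest library of 0, 0.720 and 4.33 CPM in adults and 2.59, 12.0 and 28.98 CPM at E18.5, with some overlap, and fell by 2.71 (soleus, SE 0.58, adjusted p = 0.000609) to 3.96 (gastrocnemius, SE 0.39, adjusted p = 9.75e-08) on the log2 scale. Slit3 rose in soleus by 1.00 (SE 0.19, adjusted p = 0.000195) and in vastus lateralis by 0.55 (SE 0.19, adjusted p = 0.0156). Among netrins, Ntn3 had 0.245, 0.754 and 1.35 CPM in adults and 7.08, 10.7 and 19.04 CPM at E18.5, and fell by 3.53 to 3.97 in the 4 muscles. Its stages did not overlap. Ntn3 shares exon bases with Tbc1d24 on the same strand, whose log2 fold change between stages lay between -0.72 and 0.26. Ntng2, a netrin-G protein tethered to the membrane and known in neurons as a partner of the netrin-G ligand Lrrc4, had 7.66, 11.7 and 20.97 CPM in adults and 0.193, 0.814 and 3.66 CPM at E18.5. Every adult library was above every embryonic library. The gene rose by 5.05 in gastrocnemius (SE 0.26, adjusted p = 3.76e-11), 4.74 in soleus (SE 0.24, adjusted p = 9.06e-11), 3.03 in vastus intermedius (SE 0.29, adjusted p = 3.97e-07) and 2.47 in vastus lateralis (SE 0.30, adjusted p = 1.84e-06). Exons of 6530402F18Rik overlap it on the same strand, and that gene rose too, by 3.66 in soleus, 3.09 in gastrocnemius, 1.51 in vastus intermedius and 1.58 in vastus lateralis, so their reads may be split between them. Ntn4, a basement membrane netrin, rose by 2.56 in soleus (SE 0.22, adjusted p = 3.76e-08), 2.11 in vastus intermedius (SE 0.14, adjusted p = 1.38e-08) and 1.16 in gastrocnemius (SE 0.15, adjusted p = 3.71e-06), but was not called in vastus lateralis.

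Plexins, the semaphorin receptors, were lower in all 4 adult muscles in 7 of 9 cases. Plxnb2, a receptor of class 4 semaphorins, had a lowest, median and highest library of 21.5, 31.1 and 50.8 CPM in adults and 208, 261 and 312 CPM at E18.5. It fell by 2.45 in soleus (SE 0.10, adjusted p = 1.01e-11) and by 3.41 in vastus lateralis (SE 0.10, adjusted p = 4.12e-13). The gap between the stages was wide in this gene, the highest adult library being well under the lowest embryonic one. Plxna3, a receptor for class 3 semaphorins with neuropilins, had 0.503, 2.90 and 5.68 CPM in adults and 30.4, 48.1 and 69.8 CPM at E18.5. Plxnb1, the Sema4d receptor, had 1.01, 3.77 and 6.62 CPM in adults and 16.8, 24.6 and 36.1 CPM at E18.5. Plxnc1, a receptor of Sema7a, had 0.777, 2.62 and 3.58 CPM in adults and 9.30, 15.6 and 23.7 CPM at E18.5. None of these 3 receptors had overlapping stages, and their log2 fold changes ran from -4.64 to -3.09 for Plxna3, from -3.22 to -2.25 for Plxnb1 and from -3.11 to -2.25 for Plxnc1. Sema4d and its receptor Plxnb1 thus moved in opposite directions in each of the 4 muscles, and so did Sema7a and Plxnc1.

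Eph receptors were lower in 7 of 11 cases in all 4 muscles. Epha3 had a lowest, median and highest library of 0, 0.581 and 2.17 CPM in adults and 6.54, 24.3 and 68.6 CPM at E18.5, and its log2 fold change lay between -6.52 (vastus lateralis, SE 0.72, adjusted p = 7.13e-07) and -4.68 (soleus, SE 0.44, adjusted p = 1.05e-07). Ephb2 had 0.495, 1.57 and 4.60 CPM in adults and 16.8, 27.2 and 46.7 CPM at E18.5. Ephb3 had 0.655, 2.09 and 4.36 CPM in adults and 28.5, 40.2 and 51.8 CPM at E18.5. The adult and embryonic ranges of these 3 receptor kinases were separate, and Ephb2 fell by 3.80 to 4.59 and Ephb3 by 3.80 to 4.73. Epha5 had a median of 0 and a highest library of 0.261 CPM in adults, against 1.08, 3.49 and 8.73 CPM at E18.5. It had no count in the 6 adult gastrocnemius libraries or the 5 adult vastus intermedius libraries. Set against 3 counts over each group on the same TMM scale, adult Epha5 was at least 136-fold lower in gastrocnemius and at least 126-fold lower in vastus intermedius. Epha2, which binds ephrin-A1 in vessels and epithelia, rose in soleus (0.56, SE 0.22, adjusted p = 0.0308) and vastus intermedius (0.72, SE 0.17, adjusted p = 0.00175).

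Robo1 and Robo2, the Slit receptors, were both lower. Robo1 had a lowest, median and highest library of 2.23, 6.65 and 13.5 CPM in adults and 50.1, 59.0 and 99.0 CPM at E18.5, and fell by 2.39 in soleus (SE 0.18, adjusted p = 6.87e-09) to 4.31 in vastus lateralis (SE 0.21, adjusted p = 8.07e-11). Robo2 had 0, 0.438 and 1.91 CPM in adults and 6.51, 17.7 and 26.9 CPM at E18.5, and fell by 4.01 to 6.76. Neither receptor's stages overlapped. The 3 members called in opposite directions in different muscles were Plxna4, Sema3f and Unc5a. Sema3f was higher by 0.46 in adult soleus (SE 0.11, adjusted p = 0.00155) and by 0.46 in adult vastus intermedius (SE 0.12, adjusted p = 0.00409), and fell by 0.45 in gastrocnemius (SE 0.15, adjusted p = 0.0137) and 0.53 in vastus lateralis (SE 0.21, adjusted p = 0.0303). Unc5a, a netrin receptor that mediates repulsion, fell by 1.93 in soleus (SE 0.22, adjusted p = 1.20e-06) and 1.48 in vastus intermedius (SE 0.23, adjusted p = 4.40e-05), and rose by 0.77 in gastrocnemius (SE 0.19, adjusted p = 0.00120) and 0.78 in vastus lateralis (SE 0.15, adjusted p = 0.000190). Unc5c, another netrin receptor, had no count in 6 adult vastus lateralis libraries, against a mean of 0.462 CPM at E18.5, which is at least 14.2-fold lower in adults when set against 3 counts over the group on the TMM scale.

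Levels of different genes were compared per kilobase of the deposited gene length. In adults the highest mean levels were 49.7 CPM per kb for Sema6c, 20.6 for Sema4d, 20.3 for Plxnd1, 16.7 for Sema3c and 10.8 for Ephb4. At E18.5 they were 39.1 CPM per kb for Plxnb2, 27.1 for Plxnd1, 25.2 for Sema3b, 23.9 for Ephb4 and 23.9 for Sema6c. Plxnd1 and Ephb4, receptors best known from endothelial cells, were thus among the highest at both stages. On the CPM scale Plxnd1 had a lowest, median and highest library of 102, 142 and 186 in adults and 137, 182 and 274 at E18.5, and it fell by 0.24 to 0.54 on the log2 scale in the 4 muscles.

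Between adult muscles, most members were higher in slow-biased than in fast-biased muscle. Of 57 tested, 37 were higher and 8 lower, while 66.0% of all genes tested were called, 35.9% higher and 30.1% lower. Efna4, Epha5 and Unc5c were too low to be tested. The median log2 fold change of the 57 was 0.71, beside 0.08 over all genes tested. By family, 8 of 10 Eph receptors, 5 of 6 ephrins, 7 of 9 plexins, 10 of 19 semaphorins, 2 of 5 Slit and Robo genes and 5 of 8 netrin and Unc5 genes were higher. Soleus had 29 higher and 8 lower than gastrocnemius (53.5% of all genes called, 27.7% higher and 25.9% lower), and vastus intermedius had 32 higher and 7 lower than vastus lateralis (52.2% of all genes called, 27.9% higher and 24.3% lower). In both pairs, 24 members were higher and 6, Epha7, Sema3a, Sema3c, Sema4d, Sema6c and Unc5a, were lower, beside 19.3% and 19.1% of all 14304 genes tested. No member was called in opposite directions in the pairs. With the left-out library under its label, 39 were higher and 5 lower in slow-biased muscle, 19 and 6 in soleus against gastrocnemius, and 38 and 4 in vastus intermedius against vastus lateralis.

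**Figure D2:**
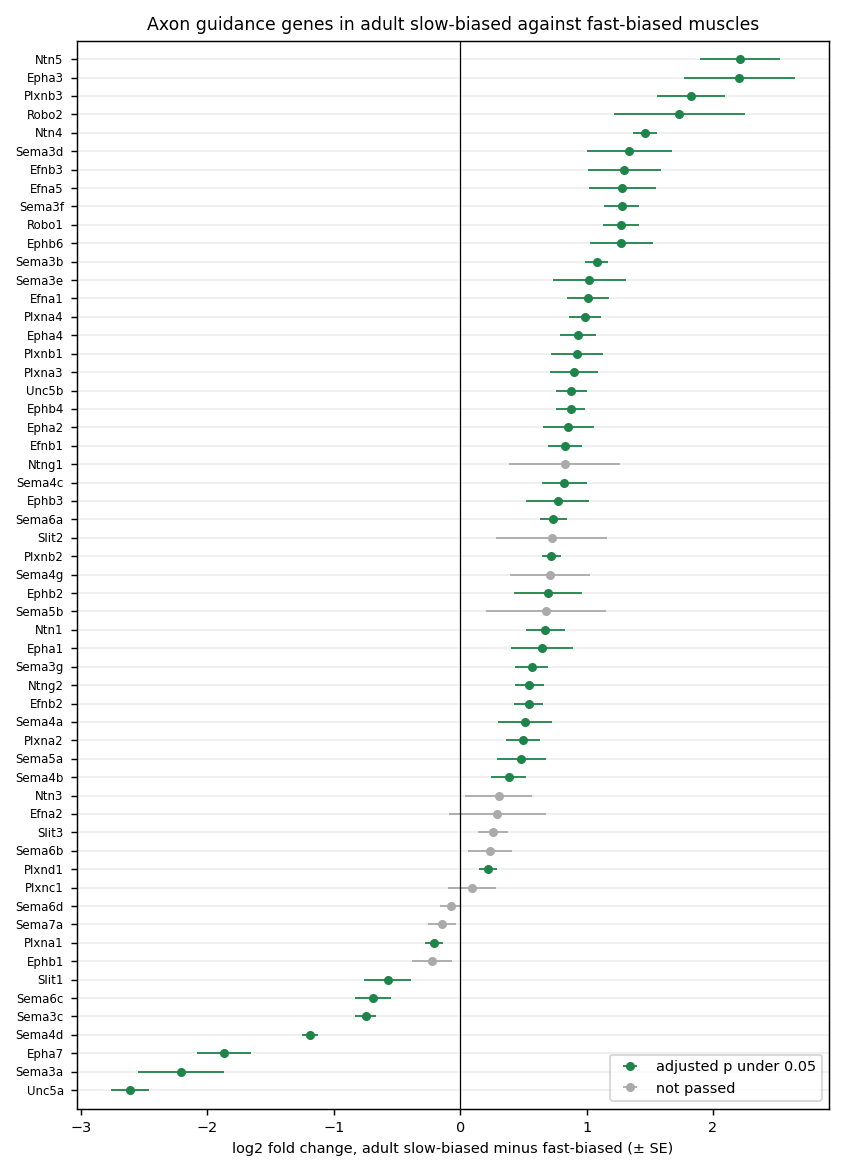
Log2 fold change with its standard error for the 57 genes tested in the adult muscles (x axis, slow-biased minus fast-biased), ordered by value. Green points passed the adjusted threshold of 0.05 and grey points did not; Ntn5 and Epha3 lie at the upper end and Unc5a at the lower end, at -2.61.

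Most markers of several cell types moved the same way. Of the 8 endothelial markers tested, 8 were higher in adult slow-biased muscle, and 1 listed marker, Cldn5, had no count in adults. The endothelial sum was 616 to 722 CPM in adult soleus, 689 to 911 CPM in adult vastus intermedius, 396 to 595 CPM in adult gastrocnemius and 299 to 504 CPM in adult vastus lateralis. In the same contrast, 6 of 9 Schwann cell markers, 4 of 7 fibroblast and progenitor markers, 5 of 6 satellite cell markers and 6 of 7 pericyte and smooth muscle markers were higher. Called lower were Ngfr of the Schwann cell list, Cdh15 of the satellite cell list and Abcc9 of the pericyte and smooth muscle list. The median pericyte and smooth muscle sum was 955 CPM in adult soleus and 919 CPM in adult vastus intermedius. It was 1023 CPM in adult gastrocnemius and 975 CPM in adult vastus lateralis. The Schwann cell sum was 72.1 to 471 CPM in adult soleus, 73.4 to 234 CPM in adult vastus intermedius, 10.7 to 83.4 CPM in adult gastrocnemius and 33.9 to 120.3 CPM in adult vastus lateralis. The part of these cells in the slow to fast differences was not tested.

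Of the 8 members higher in adult fast-biased muscle, Unc5a and Sema4d had no overlap between slow-biased and fast-biased libraries. Unc5a had a lowest, median and highest library of 0.678, 1.43 and 2.19 CPM in adult slow-biased muscle and 6.31, 8.81 and 11.5 CPM in adult fast-biased muscle. No library of one kind reached the other kind. Its log2 fold change was -2.61 (SE 0.15, adjusted p = 6.92e-13), and Unc5a was lower in soleus than in gastrocnemius in 6 of 6 animals and lower in vastus intermedius than in vastus lateralis in 5 of 5. Hk3, which overlaps Unc5a exons on the other strand, had a log2 fold change of 0.26 (SE 0.28, adjusted p = 0.413). Sema3a, a secreted repellent that muscle precursor cells also make, had 0.106, 1.05 and 3.31 CPM in adult slow-biased muscle and 2.17, 6.41 and 13.1 CPM in adult fast-biased muscle. The ranges overlapped between 2.17 and 3.31 CPM, the highest slow-biased library being vastus intermedius of collection C. Its log2 fold change was -2.21 (SE 0.34, adjusted p = 4.29e-06). In the 5 adult vastus intermedius libraries Sema3a had 0.106, 3.31, 0.564, 0.583 and 0.558 CPM, against 6.04, 10.7 and 13.1 CPM as the lowest, median and highest of adult vastus lateralis. Within the shank the difference was -1.20 (SE 0.45, adjusted p = 0.0270), with lower values in soleus in 4 of 6 animals and higher in 2, and it was lost without adult collection D (-0.87, adjusted p = 0.145) or F (-1.09, adjusted p = 0.0868).

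Epha7, an Eph receptor that mouse muscle precursors also carry, had a lowest, median and highest library of 0.679, 1.47 and 3.13 CPM in adult slow-biased muscle and 2.25, 5.91 and 14.9 CPM in adult fast-biased muscle, a log2 fold change of -1.87 (SE 0.21, adjusted p = 5.35e-08). The highest libraries were those of vastus lateralis, at 6.88 to 14.9 CPM. Sema4d had 47.2, 53.0 and 66.8 CPM in adult slow-biased muscle and 105, 123 and 157 CPM in adult fast-biased muscle, without overlap, and a log2 fold change of -1.19 (SE 0.06, adjusted p = 2.08e-13). Both differences had the same direction in all 11 within-animal pairs of muscles. Sema3c, a secreted class 3 member known from heart and vessel development, fell by 0.75 in slow-biased muscle (SE 0.08, adjusted p = 3.26e-08) and Sema6c by 0.69 (SE 0.14, adjusted p = 0.000196). Within the shank, Sema3c lost its call without adult collection C (-0.30, adjusted p = 0.0612) or D (-0.29, adjusted p = 0.0662). Smaller values were found for the ligand Slit1 (-0.57, SE 0.19, adjusted p = 0.00904) and the receptor Plxna1 (-0.21, SE 0.07, adjusted p = 0.0133). Plxna1 lost its call without adult collection A, D or F, when its log2 fold change was -0.19 to -0.17 and its adjusted p 0.0505 to 0.0814. Slit1 was lower in soleus than in gastrocnemius in 6 of 6 animals (-1.01, SE 0.25, adjusted p = 0.00169). Between the vastus muscles it was lower in vastus intermedius in 3 of 5 animals and higher in 2. Plxna1 was lower in vastus intermedius in 5 of 5 animals and was not called within the shank (-0.04, SE 0.10, adjusted p = 0.753).

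**Figure D3:**
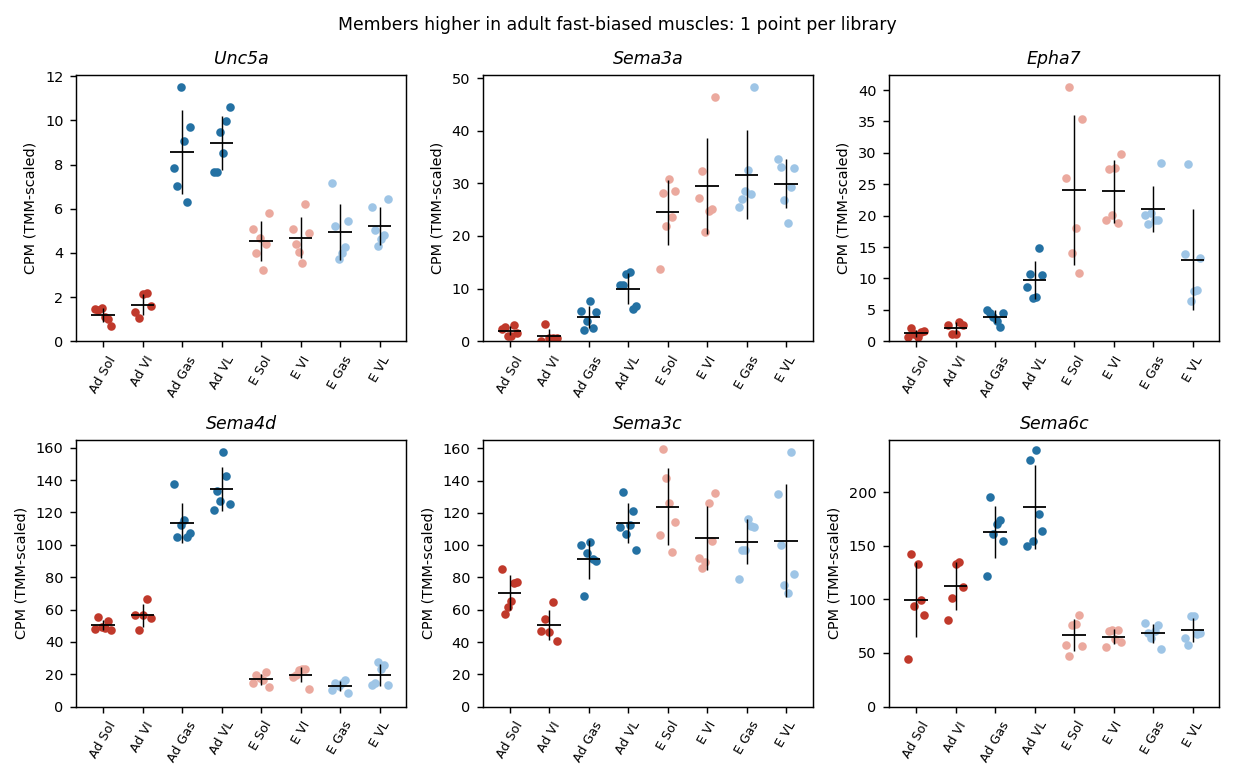
CPM (y axis, TMM-scaled, 1 point per library) of 6 genes higher in adult fast-biased muscle, by stage and muscle on the x axis (Ad adult, E E18.5, Sol soleus, VI vastus intermedius, Gas gastrocnemius, VL vastus lateralis; red slow-biased, blue fast-biased, paler at E18.5; bars mean and SD). Unc5a and Sema4d separate adult slow-biased from adult fast-biased libraries without overlap, while the 4 muscles mix at E18.5.

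On the slow-biased side, Ntn5, a short netrin, had a lowest, median and highest library of 1.24, 3.03 and 4.72 CPM in adult slow-biased muscle and 0.126, 0.478 and 1.55 CPM in adult fast-biased muscle, a log2 fold change of 2.21 (SE 0.32, adjusted p = 1.52e-06). Sec1, on the other strand across Ntn5 exons, had 2.22 (SE 0.40, adjusted p = 3.73e-05), so reads of the overlapping genes could not be told apart. Epha3 had 0.441, 1.25 and 2.17 CPM in adult slow-biased muscle and 0, 0.204 and 1.13 CPM in adult fast-biased muscle, a log2 fold change of 2.21 (SE 0.44, adjusted p = 0.000120). The ranges of both genes overlapped slightly. Plxnb3, a receptor of Sema5a, had 4.66, 7.98 and 13.8 CPM in adult slow-biased muscle and 0.424, 1.80 and 4.47 CPM in adult fast-biased muscle, with no overlap and a log2 fold change of 1.83 (SE 0.27, adjusted p = 2.64e-06). It was higher in the slow-biased muscle of all 11 within-animal pairs.

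Ntn4 was 1.46 higher on the log2 scale (SE 0.09, adjusted p = 3.37e-12), Sema3f 1.28 (SE 0.14, adjusted p = 2.75e-08), Robo1 1.27 (SE 0.14, adjusted p = 4.14e-08) and Sema3b, a secreted class 3 member, 1.08 (SE 0.09, adjusted p = 3.48e-10). These 4, with Plxnb3, Plxna4, Plxnb2, Efnb3, Ephb4 and Unc5b, were the 10 members whose adult slow-biased libraries all lay above the adult fast-biased ones, and Sema4d and Unc5a were the 2 that lay below. Of the 14549 genes that reached 1 CPM in a group, 5.31% lay above and 8.87% below in the same way. In Robo1 the slow-biased values ran from 7.03 to 13.5 CPM and the fast-biased values from 2.23 to 6.65 CPM. Robo2 (1.73, SE 0.52, adjusted p = 0.00503) lost its call without adult collection C (1.36, adjusted p = 0.0550). Robo2 was not called within the shank (0.90, SE 0.63, adjusted p = 0.227), where soleus was higher in 4 of 6 animals. Vastus intermedius was higher than vastus lateralis in 4 of 5 animals. In adult vastus lateralis Robo2 was near the floor, at 0.628 CPM in collection D and 0 to 0.144 CPM in the others. Sema3d (1.34, SE 0.33, adjusted p = 0.00114), Efnb3 (1.30, SE 0.29, adjusted p = 0.000416) and Efna5, an ephrin known to repel limb motor axons (1.28, SE 0.27, adjusted p = 0.000184), completed the 8 largest of those higher in slow-biased muscle. In this mean of both pairs, the genes with no call included Slit2, Slit3, Sema6d, Sema7a and Plxnc1. Within the shank, Slit3 was higher in soleus (0.53, SE 0.16, adjusted p = 0.00740) and Sema7a lower (-0.53, SE 0.16, adjusted p = 0.00603), each in 6 of 6 animals. Vastus intermedius was higher than vastus lateralis in 2 of 5 animals for Slit3 and in 4 of 5 for Sema7a.

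**Figure D4:**
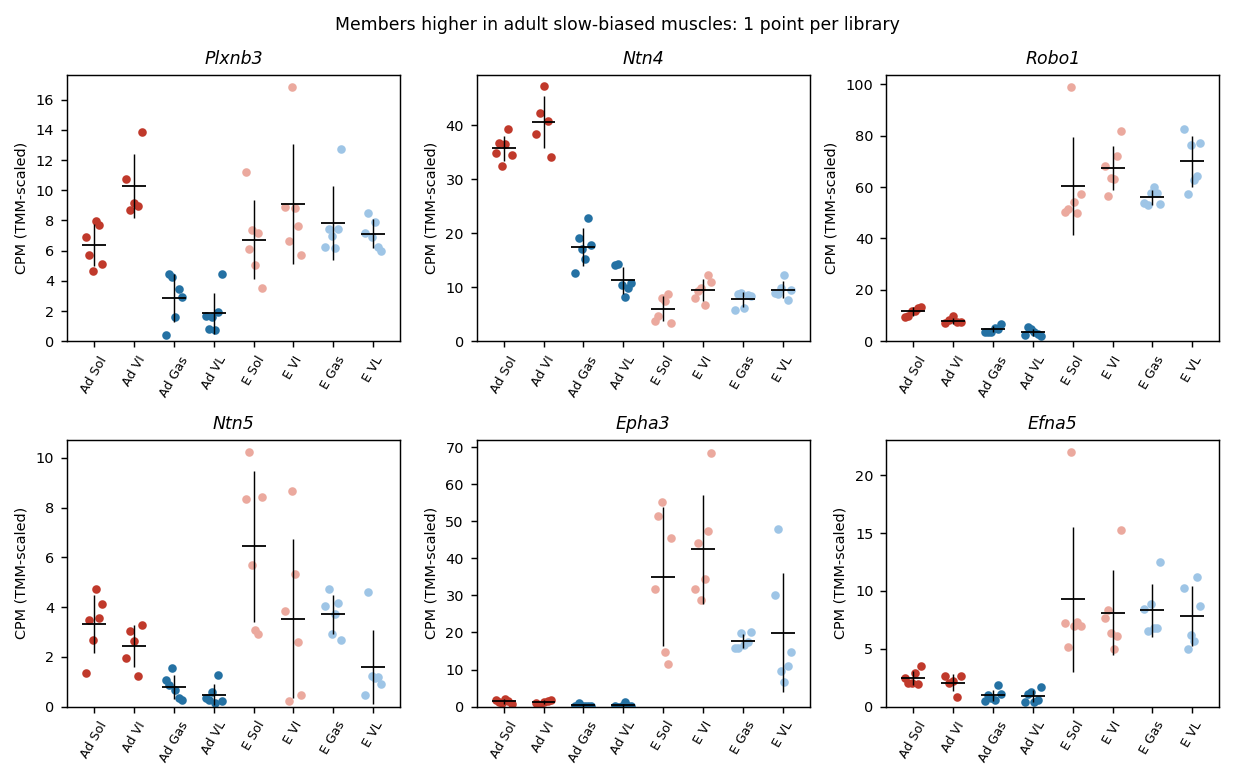
CPM (y axis, TMM-scaled, 1 point per library) of 6 genes higher in adult slow-biased muscle, with axes, colours and bars as in the plot of genes higher in fast-biased muscle. Plxnb3, Ntn4 and Robo1 separate the adult libraries by fibre bias without overlap, and Robo1, Epha3 and Efna5 lie higher at E18.5 than in any adult muscle.

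For 4 genes described above 1 annotated start site each is shown, as examples of a gene higher in fast-biased muscle (Unc5a, Sema3a), in slow-biased muscle (Plxnb3) and in adults (Ntng2). Each window runs from 250 bases before to 50 bases after that start in RefSeq annotation of GRCm38.p6, 5′ to 3′ on the gene's strand. They are chr13:54949161-54949460 on the plus strand for Unc5a, chr5:13396534-13396833 on the plus strand for Sema3a, chrX:73756853-73757152 on the plus strand for Plxnb3 and chr2:29248050-29248349 on the minus strand for Ntng2. The windows of Unc5a, Sema3a and Plxnb3 lie downstream of the first annotated base of those genes (54945151, 13124822 and 73756556). They may therefore miss the main promoter, and which start these muscles use was not tested. Capitals mark each CANNTG, the E-box read by basic helix-loop-helix factors such as the myogenic regulators.
Unc5a: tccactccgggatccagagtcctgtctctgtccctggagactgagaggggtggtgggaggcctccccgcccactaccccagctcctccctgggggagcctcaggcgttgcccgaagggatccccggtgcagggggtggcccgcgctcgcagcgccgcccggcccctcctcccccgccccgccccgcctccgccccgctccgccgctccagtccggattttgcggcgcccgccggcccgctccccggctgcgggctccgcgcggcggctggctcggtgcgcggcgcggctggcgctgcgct
Sema3a: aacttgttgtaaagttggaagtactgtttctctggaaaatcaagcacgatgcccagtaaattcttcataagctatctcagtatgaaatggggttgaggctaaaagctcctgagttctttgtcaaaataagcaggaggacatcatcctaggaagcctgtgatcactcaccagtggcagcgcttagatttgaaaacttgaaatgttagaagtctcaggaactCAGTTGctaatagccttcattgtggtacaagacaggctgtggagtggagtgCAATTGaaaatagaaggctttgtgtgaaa
Plxnb3: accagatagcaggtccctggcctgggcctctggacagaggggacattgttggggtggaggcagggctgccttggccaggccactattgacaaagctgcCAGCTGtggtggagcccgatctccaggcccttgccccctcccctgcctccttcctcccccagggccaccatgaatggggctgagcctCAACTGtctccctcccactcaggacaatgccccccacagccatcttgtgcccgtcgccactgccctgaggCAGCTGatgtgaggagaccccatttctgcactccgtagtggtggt
Ntng2: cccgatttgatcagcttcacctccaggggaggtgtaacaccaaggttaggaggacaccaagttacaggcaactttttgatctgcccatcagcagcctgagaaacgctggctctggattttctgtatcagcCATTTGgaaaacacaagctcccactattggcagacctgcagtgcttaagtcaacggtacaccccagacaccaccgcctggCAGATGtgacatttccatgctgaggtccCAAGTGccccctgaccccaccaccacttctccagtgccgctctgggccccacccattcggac
The Unc5a window held 0 E-boxes, that of Sema3a 2, that of Plxnb3 3 and that of Ntng2 3. A Mef2-like site was searched as CTA and TAG with 4 bases of any kind between them. Both motifs read the same on either strand, and the windows shown hold none of the second, so no match overlapped one of the other motif. RefSeq windows were found for 52 of the 60 members (67 windows). CANNTG stood in 46.3% of these windows, against 72.3% of all 32851 promoter windows, and the Mef2-like site in 1.49%, against 3.69%. A match is a run of letters and says nothing of binding.

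At E18.5 few of these genes were called between slow-biased and fast-biased muscles. Of 60 tested, 0 were higher and 1, Plxnc1, was lower in slow-biased muscle, where 0.368% of all genes tested were called, 0.146% higher and 0.222% lower. Plxnc1 had a lowest, median and highest library of 9.30, 13.6 and 19.98 CPM in E18.5 slow-biased muscle and 15.3, 17.2 and 23.7 CPM in E18.5 fast-biased muscle, with overlap, and a log2 fold change of -0.44 (SE 0.10, adjusted p = 0.0399). The call was lost without E18.5 collection A, C, D, E or F, when the log2 fold change was -0.46 to -0.37 and the adjusted p 0.0623 to 0.255. At an unadjusted p under 0.05, 15 members passed, DESeq2 called 4, and edgeR with the animal as a replicate block called 5. Between soleus and gastrocnemius edgeR called 0 members (0.286% of all genes called, 0.0952% higher and 0.190% lower), 11 passed at an unadjusted p under 0.05 and DESeq2 called 1. Between vastus intermedius and vastus lateralis edgeR called 0 members (0.0317% of all genes called, 0.00635% higher and 0.0254% lower), 12 passed unadjusted and DESeq2 called 0. Averaging both pairs can hide opposite differences. For example, Slit2 was lower in soleus than in gastrocnemius in 6 of 6 embryos (-1.12, SE 0.34, edgeR adjusted p = 0.205). Slit2 was higher in vastus intermedius than in vastus lateralis in 6 of 6. For Unc5a the E18.5 log2 fold change between slow-biased and fast-biased muscle was -0.14 (SE 0.12, adjusted p = 0.769), for Sema4d 0.22 (SE 0.15, adjusted p = 0.662) and for Robo1 0.04 (SE 0.10, adjusted p = 0.953). A p above the threshold does not show that the muscles were alike.

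Tested directly, the slow to fast difference was another one in adults than at E18.5 for 42 of 60 members, 34 more positive and 8 more negative in adults, where 50.8% of all genes tested were called, 26.6% in the positive and 24.2% in the negative direction. The median difference was 0.72 on the log2 scale, beside 0.08 over all genes tested. With the left-out library under its label, 41 were more positive and 5 more negative. Unc5a led the negative ones with -2.51 (SE 0.19, adjusted p = 1.08e-14), followed by Epha7 with -2.45 (SE 0.32, adjusted p = 1.74e-08), Sema3a with -2.05 (SE 0.33, adjusted p = 1.64e-06) and Sema4d with -1.44 (SE 0.17, adjusted p = 1.02e-09). At E18.5 Unc5a had 3.22 to 6.21 CPM in slow-biased and 3.74 to 7.16 CPM in fast-biased muscle, so its adult fast-biased libraries were mostly above and its adult slow-biased libraries all below the embryonic ones. Among the positive ones, Robo2 had 1.81 (SE 0.49, adjusted p = 0.00176), Plxnb3 1.72 (SE 0.32, adjusted p = 1.88e-05), Ntn4 1.61 (SE 0.18, adjusted p = 3.28e-10) and Robo1 1.20 (SE 0.17, adjusted p = 7.96e-08). Sema3d (1.33, adjusted p = 0.0358) lost its call with the replicate block (1.21, adjusted p = 0.0687) and without adult collection A, B, C or D or E18.5 collection A or E (1.06 to 1.35, adjusted p 0.0532 to 0.109).

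Thigh and shank muscles differed in 15 of 60 members at E18.5, 4 higher and 11 lower in the thigh, where 24.8% of all genes tested were called, 14.1% higher and 10.7% lower. Ntng2 had a lowest, median and highest library of 0.843, 1.56 and 3.66 CPM in E18.5 thigh muscle and 0.193, 0.371 and 0.785 CPM in E18.5 shank muscle, a log2 fold change of 2.17 (SE 0.27, adjusted p = 7.89e-06). It was the 1 member without overlap between the regions, beside 0.426% of the 14549 genes that reached 1 CPM in a group and lay above in the same way. The overlapping gene 6530402F18Rik had 1.64 (SE 0.24, adjusted p = 2.55e-05). Plxna4, a receptor through which Sema3a and class 6 semaphorins signal, had 14.1, 29.7 and 45.1 CPM in E18.5 thigh muscle and 5.68, 13.3 and 20.01 CPM in E18.5 shank muscle, a log2 fold change of 1.25 (SE 0.16, adjusted p = 1.19e-05). Only the lowest thigh library was within the shank range. Ntn4 was 0.47 higher in the thigh (SE 0.15, adjusted p = 0.0201), a call lost without E18.5 collection A, B or F (0.39 to 0.47, adjusted p 0.0556 to 0.0671). Sema4d was 0.41 higher (SE 0.15, adjusted p = 0.0468), a call lost without any 1 of E18.5 collections A to E (0.34 to 0.49, adjusted p 0.0506 to 0.173) and with no filter on low counts (adjusted p = 0.0542).

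The 11 members lower in the E18.5 thigh were 6 receptors and 5 ligands. Robo2 fell by 0.53 (SE 0.16, adjusted p = 0.0182), which did not pass without E18.5 collection C (-0.40, adjusted p = 0.127) or D (-0.46, adjusted p = 0.0668). Ephb2 fell by 0.49 (SE 0.10, adjusted p = 0.000967), Plxna3 by 0.47 (SE 0.08, adjusted p = 0.000141), Efnb3 by 0.43 (SE 0.10, adjusted p = 0.00201), Sema3f by 0.36 (SE 0.09, adjusted p = 0.00293), Sema6a by 0.32 (SE 0.07, adjusted p = 0.00238), Ephb3 by 0.26 (SE 0.05, adjusted p = 0.000707) and Plxna2 by 0.26 (SE 0.07, adjusted p = 0.00725). The other 3, Efna2, Plxnb1 and Sema4c, fell by 0.19 to 0.24. For Ephb2 the libraries ran from 16.8 to 32.7 CPM in E18.5 thigh muscle and from 24.6 to 46.7 CPM in E18.5 shank muscle, so the ranges overlapped. In the same contrast 6 of 7 skeletal muscle markers were higher in the thigh. Lower were 3 of 5 tendon and 3 of 6 satellite cell markers, while 1 satellite cell marker, Calcr, was higher. The part of these cell types was not tested.

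In adults 7 of 57 members tested differed between the regions, 3 higher and 4 lower in the thigh, where 19.1% of all genes tested were called, 11.6% higher and 7.55% lower. Epha7 was 1.01 higher (SE 0.21, adjusted p = 0.00145) and Ephb1, an ephrin-B receptor, 0.74 higher (SE 0.16, adjusted p = 0.00173). Epha7 had a lowest, median and highest library of 1.13, 6.88 and 14.9 CPM in adult thigh muscle and 0.679, 2.17 and 4.95 CPM in adult shank muscle, and the ranges overlapped. The other 5 calls, Sema4d (0.21), Slit1 (-0.55), Robo1 (-0.47), Sema3b (-0.42) and Sema3f (-0.40), had adjusted p of 0.00220 to 0.0478. Of these, Slit1, Robo1, Sema3f and Sema4d each lost the call when 1 of several adult collections was left out. The number of calls was 4 without adult collection D or E, and 2 with the left-out library under its label. In the same contrast 3 of 3 slow fibre markers and 3 of 5 tendon markers were lower and 3 of 3 fast fibre markers were higher in the thigh, whose part was not tested. Ntng2 and Plxna4, the leading thigh genes at E18.5, had 0.02 (SE 0.12, adjusted p = 0.923) and -0.06 (SE 0.13, adjusted p = 0.787) in adults.

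**Figure D5:**
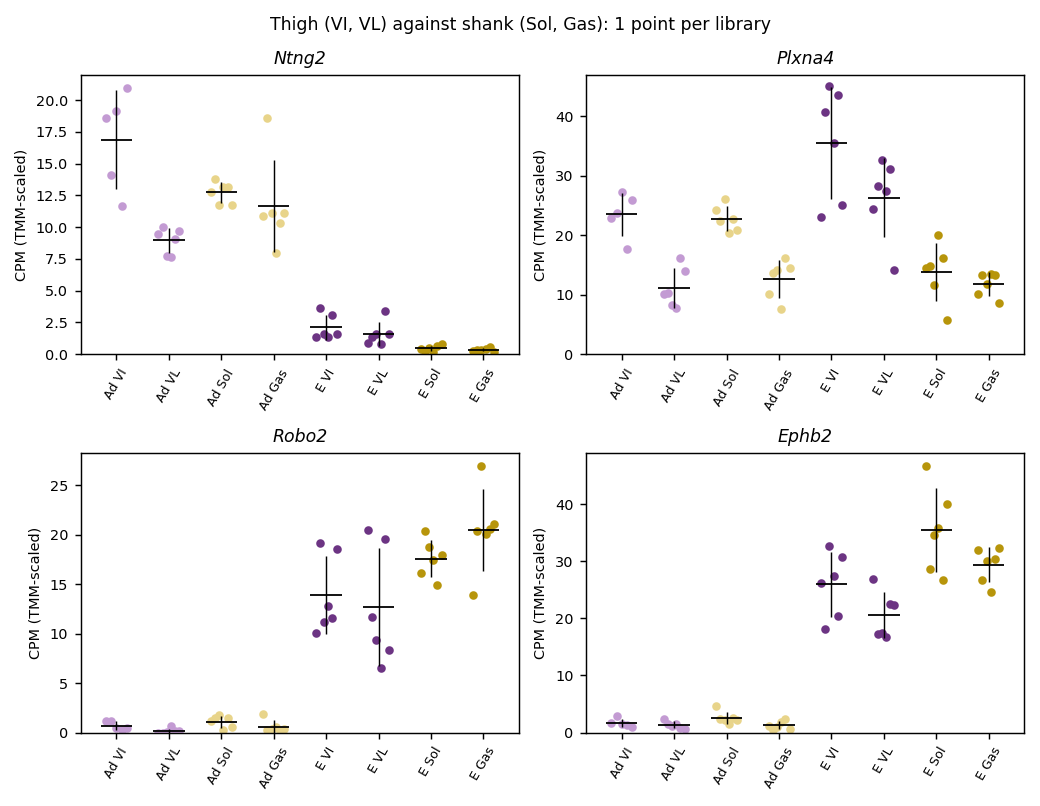
CPM (y axis, TMM-scaled, 1 point per library; bars mean and SD) of 4 genes by stage and muscle on the x axis (Ad adult, E E18.5; purple thigh muscles VI and VL, yellow shank muscles Sol and Gas, paler in adults). Ntng2 at E18.5 lies at 0.843 CPM or more in each thigh library and at 0.785 CPM or less in each shank library, and Plxna4 is likewise higher in the E18.5 thigh.

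A list of 50 co-receptors and intracellular effectors of these pathways, all found in the table, was read beside the members. In adults against E18.5, 7 were higher and 29 lower of 47 tested in soleus, 8 and 32 of 46 in gastrocnemius, 10 and 31 of 46 in vastus intermedius and 10 and 31 of 47 in vastus lateralis, with the shares of all genes given above. Dcc, the attractive netrin receptor, was too low to be tested in adults or between stages, while Neo1, neogenin, which also binds netrins, fell by 0.35 in adult slow-biased muscle against fast-biased muscle (SE 0.05, adjusted p = 1.93e-06). The neuropilins Nrp1 (0.89, SE 0.10, adjusted p = 6.73e-08) and Nrp2 (0.81, SE 0.13, adjusted p = 6.82e-06), co-receptors of class 3 semaphorins, were higher in adult slow-biased muscle. In that contrast 26 of 45 were higher and 14 lower, beside 35.9% and 30.1% of all genes tested. Pak1, a kinase downstream of Rac (-2.95, SE 0.18, adjusted p = 1.02e-12), Dpysl5, a relative of the collapsin response mediator (-2.34, SE 0.37, adjusted p = 7.17e-06), and Mical2, an actin-oxidising enzyme of a family that binds plexins (-2.25, SE 0.19, adjusted p = 2.65e-10), were among those lower. Draxin, a netrin-binding cue (2.46, SE 0.44, adjusted p = 3.04e-05), and Srgap3, a Slit-Robo GTPase-activating protein (2.28, SE 0.20, adjusted p = 4.73e-10), were among those higher. At E18.5, 0 of 50 were higher and 1, Nrcam, was lower in slow-biased muscle, while 2 were higher and 13 lower in the thigh, beside 14.1% and 10.7% of all genes tested.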

How the data were processed

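The authors deposited raw read counts per gene, not normalized, for 48 libraries. The build was mm10, and STAR 2.7.11, Trimmomatic 0.39.0, FastQC 0.11.5, DESeq2 1.44.0 and Subread 2.0.6 with featureCounts are named, per the submitters' processing notes. The counting's annotation and strand were not given in the sources used here. Overlapping and antisense genes may share reads, and 12 members have such an overlap. Per the labels, libraries were made from mRNA with random primers.

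Symbols came from the deposited comparison tables (18780 genes) and a RefSeq table of GRCm38.p6 (25281 genes in either). Counts were tested with edgeR 4.0.16 in R 4.3.3 (quasi-likelihood F test, TMM, filterByExpr, Benjamini-Hochberg adjustment over all genes tested). Stage was tested within each muscle. Muscles were tested in 1 fit per stage with no block for the animal, and the slow to fast difference between stages in 1 fit of 8 groups. The rule names up to 8 members with the largest fold change per direction. It gives library values for members past an absolute log2 fold change of 2 in all 4 stage comparisons and for 6 members in adult slow against fast. Members and lists were chosen with earlier results of these data known. Levels are CPM scaled by TMM over 48 libraries, and the floor of 3 counts is on that scale.

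The labels say that muscles came from the same animals, and each date tag holds 1 library per muscle, so the tag was used as the animal. Deviations from group means correlated by 0.123 within adult animals and by -0.0249 between them, and by 0.209 and -0.0413 at E18.5. Libraries are separate samples: between libraries of 1 group, chi-square over degrees of freedom was at least 10.2. Alternatives were DESeq2 1.42.0, RLE and upper-quartile factors, no filter, the replicate block, the left-out library under its label, and each collection left out. On simulated counts, edgeR recovered 62% of genes changed by 1 and 99% of genes changed by 2 on the log2 scale in adult soleus against E18.5 (13954 genes), and 95% and 100% in adult slow against fast (12990 genes). The simulation gave every gene the same dispersion, had no animal effect and changed 100 genes per size, far fewer than were called in the data. These shares are therefore not the power for the members.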

Additional observations from a re-analysis of the deposited data

Results flagged for a closer look

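For the 24 members described library by library, 190 groups of 4 to 10 libraries were searched for a highest or lowest library that stood apart from the rest (Dixon's gap), and 27 had one. Chance gives about 1 in 20 groups only where values are normal and the groups independent. CPM values near 0 can be skewed and several flags share a library, so the count is a description. In adult soleus the library of collection A was high for Ephb2 (4.60 CPM), Sema4g (2.14 CPM), Sema5a (30.8 CPM) and Slit2 (4.33 CPM). The same library had a Schwann cell marker sum of 471 CPM, against 72.1 to 102 CPM in the other adult soleus libraries, and its part in these values was not tested. In E18.5 gastrocnemius the library of collection F was high for Epha5 (8.73 CPM), Epha7 (28.4 CPM), Plxnb3 (12.7 CPM) and Sema3a (48.3 CPM), and that of collection A for Sema6b (49.7 CPM). In E18.5 vastus lateralis the library of collection B was high for Epha5 (8.23 CPM), Epha7 (28.1 CPM) and Ntn5 (4.61 CPM), and that of collection E for Ntng2 (3.38 CPM). Adult vastus lateralis of collection D was high for Epha3 (1.13 CPM), Robo2 (0.628 CPM) and Sema5b (1.38 CPM), that of C for Efna4 (0.445 CPM) and that of F for Plxnb3 (4.47 CPM). Adult gastrocnemius was high in collection A for Efna4 (0.495 CPM) and Robo2 (1.91 CPM) and in B for Epha3 (0.928 CPM) and Ntng2 (18.6 CPM). Single libraries also stood high for Sema3a in adult vastus intermedius (C, 3.31 CPM), Ntn3 (F, 19.04 CPM) and Plxnb3 (C, 16.8 CPM) in E18.5 vastus intermedius, and Robo1 in E18.5 soleus (C, 99.0 CPM), while Efna2 in E18.5 soleus was low in 1 (E, 5.38 CPM).

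The slow to fast difference itself differed between the stages for the members that follow, by the interaction term in edgeR with Benjamini-Hochberg adjustment. On the log2 scale, adult minus E18.5, it was -2.51 for Unc5a, -2.45 for Epha7, -2.05 for Sema3a, -1.44 for Sema4d, -0.94 for Sema3c, -0.73 for Slit1, -0.65 for Sema6c and -0.27 for Plxna1. It was 1.81 for Robo2, 1.72 for Plxnb3, 1.61 for Ntn4, 1.39 for Sema5b, 1.33 for Sema3d, 1.20 for Robo1 and 1.13 for Efna5. The value of 4.18 for Unc5c rests on adult fast-biased groups with 0 and 1 counts in all and depends on the fit's prior count. Without adult collection A or F, Sema5b had 1.31 and 0.93 and adjusted p of 0.0503 and 0.141. Plxna1 lost its call without adult collection A, D, E or F (-0.24 to -0.19, adjusted p 0.0532 to 0.123), and with the left-out library so did Sema3a (-0.90, adjusted p = 0.159), Slit1 (-0.51, adjusted p = 0.120) and Plxna1 (-0.14, adjusted p = 0.412).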

How the results depend on the processing

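Across all alternatives, 1981 checks of named members kept their direction and their side of the threshold, 89 kept the direction but lost the call, and 1 turned: Robo1 between adult thigh and shank was 0.15 (adjusted p = 0.844) with the left-out library under its label, and -0.47 without it. The count of members called in adult thigh against shank was then 2, beside 7. With that library, Sema3a lost its call in adult slow against fast (-1.07, adjusted p = 0.0903), as did Slit1 (-0.36, adjusted p = 0.181) and Plxna1 (-0.09, adjusted p = 0.540), and Epha3, Epha5 and Sema5b lost theirs between stages in vastus intermedius (adjusted p of 0.0574, 0.121 and 0.0943). In E18.5 slow against fast, 1 member was called, beside 4 with DESeq2 and 5 with the replicate block, and 58 genes in all were called, beside 274 and 212, with 10 to 237 when a collection was left out. In E18.5 soleus against gastrocnemius DESeq2 called 1 member, beside 0, and 164 genes, beside 45, or 101 with the replicate block and as few as 9 without collection D. In E18.5 vastus intermedius against vastus lateralis DESeq2 called 19 genes, beside 5, or 0 to 100 with a collection left out. In adult thigh against shank 2736 genes were called, beside 1118 with the left-out library, 1477 without collection E and 1679 without F. Leaving out each collection in turn gave 0 to 5 members called in E18.5 slow against fast, 0 to 2 in E18.5 vastus intermedius against vastus lateralis (2 without collection B), 4 to 7 in adult thigh against shank, 11 to 14 in E18.5 thigh against shank, 39 to 44 in adult slow against fast and 50 to 56 over the 4 stage comparisons. The replicate block also ended the call of Slit1 in adult thigh against shank (-0.57, adjusted p = 0.0523) and of Sema3d in the stage difference of slow against fast (1.21, adjusted p = 0.0687), and no other call of a named member. Upper-quartile factors moved the median of all genes by -0.14 in gastrocnemius, -0.12 in vastus intermedius and -0.11 in vastus lateralis between stages. With CPM from total counts, chosen after seeing the data, 61 members were described. The causes were not tested. Below about 1 CPM few counts stand behind a value, and differences there may not be detectable at this depth.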
